A study of Mus musculus with 12 samples.

Results

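The Chd genes encode the chromodomain helicase DNA-binding proteins, a family of 9 ATP-dependent chromatin remodellers to which the mutated gene of this study, Chd7, belongs. Probes of the family were found by matching the transcript accession of every non-control probe to a RefSeq gene table. The match gave 12 probes for 8 of the 9 members, out of 39429 non-control probes on the array. Chd2 had 4 probes, Chd6 had 2, and Chd1, Chd3, Chd4, Chd5, Chd8 and Chd9 had 1 each. No probe was tied to Chd7 through the table, so Chd7 itself is not analysed here, and the genotype labels could not be checked on it. Since 13380 probes had no match in the table, this does not show that the array lacks a Chd7 probe.

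The study compared whole female mouse embryos at embryonic day 9.5, a stage when neural crest cells are migrating, to find genes affected when functional Chd7 is missing. The groups were 4 Chd7Whi/Whi embryos (homozygous), 4 Chd7Whi/+ embryos (heterozygous) and 4 Chd7+/+ embryos (wild type), from matings of heterozygous whirligig parents on a mixed C3HeB/FeJ background. Whirligig is a single mutant allele of Chd7, carried in every cell of the embryo. Each RNA sample was called a biological replicate in the labels and was hybridised to 1 one-colour Agilent array, and a replicate number here only names an array.

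CHD proteins carry paired chromodomains, which can bind histone tails, ahead of an ATPase motor of the SNF2 type that moves nucleosomes along DNA. Chd1 and Chd2 form the first subfamily, Chd3, Chd4 and Chd5 the second, whose members can serve as the motor of the NuRD complex, and Chd6, Chd7, Chd8 and Chd9 the third. In people, mutations of CHD7 cause CHARGE syndrome, a disorder of organs built in part by the neural crest, and CHD7 protein is known to associate with CHD8.

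Signals are given as the log2 processed signal of a probe minus the 75th percentile of its array, so that 0 is the level of that percentile and a step of 1 is a 2-fold difference. This percentile lay between 1046 and 1628 units of processed signal, and 69.3% to 75.7% of the probes of an array were well above background. The arrays lay on 3 slides, each with all 3 genotypes, but the first position of a slide held 3 arrays, all of them wild type. Of the tissues expected in a whole embryo, 7 of 7 heart muscle, 7 of 7 primitive erythroid and 7 of 7 neural tube markers were well above background on all 12 arrays, as were 8 of 10 early neuron, 5 of 7 visceral endoderm or liver bud and 4 of 6 somite and presomitic mesoderm markers. Heterozygous replicate 1 stood apart from the rest. The mean scaled signal of the heart muscle markers was -0.76 on heterozygous replicate 1, against 3.34 to 3.80 on the other heterozygous arrays, and each of the 7 markers was lower there than on any of the other 11 arrays. The main test results on heterozygotes are therefore also given without this array. Visceral endoderm and liver bud markers varied widely between arrays: the mean of the 5 markers seen on all arrays was -1.28 to 3.38 in homozygous, 0.58 to 2.01 in heterozygous and -0.76 to 1.98 in wild-type embryos.

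No Chd probe passed the test in any of the 3 genotype comparisons, by limma over 27540 tested probes with Benjamini-Hochberg adjustment. Between homozygous and wild-type embryos 0 of 12 probes had an adjusted p under 0.05, where 1.17% of all probes did. The count was 0 of 12 between heterozygous and wild-type embryos, with 0.00726% of all probes, and 0 of 12 between homozygous and heterozygous embryos, with 0.0109% of all probes. The smallest adjusted p among the Chd probes was 0.348 for homozygous against wild type, 0.311 for heterozygous against wild type and 0.95 for homozygous against heterozygous. Without heterozygous replicate 1 the counts were again 0, and the smallest adjusted p was 0.386, 0.367 and 0.915 in the same order of comparisons. The log2 fold changes of heterozygous over wild type then ran from -0.94 for Chd2 probe 4 to 0.28 for Chd2 probe 3.

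The intervals of the differences are those of the fit with genotype only, and their widths hold for that fit. With array position as a block, the SE of heterozygous over wild type rose from 0.25 to 0.58 for Chd2 probe 2. For Chd6 probe 1 it rose from 0.24 to 0.56. The intervals below are from the genotype-only fit. In each comparison the 95% interval lay within a 2-fold difference in either direction for 11 of the 12 probes, Chd2 probe 4 being the exception. It lay within 1.5-fold for 9 probes between homozygous and wild-type embryos, for 9 between heterozygous and wild-type embryos and for 10 between homozygous and heterozygous embryos. The median spread within genotypes was an SD of 0.21 for the Chd probes and also 0.21 for all tested probes. Nearly all signals were measurable: 143 of 144 probe values were well above background, and 11 of the 12 probes were so on all arrays.

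**Figure D1:**
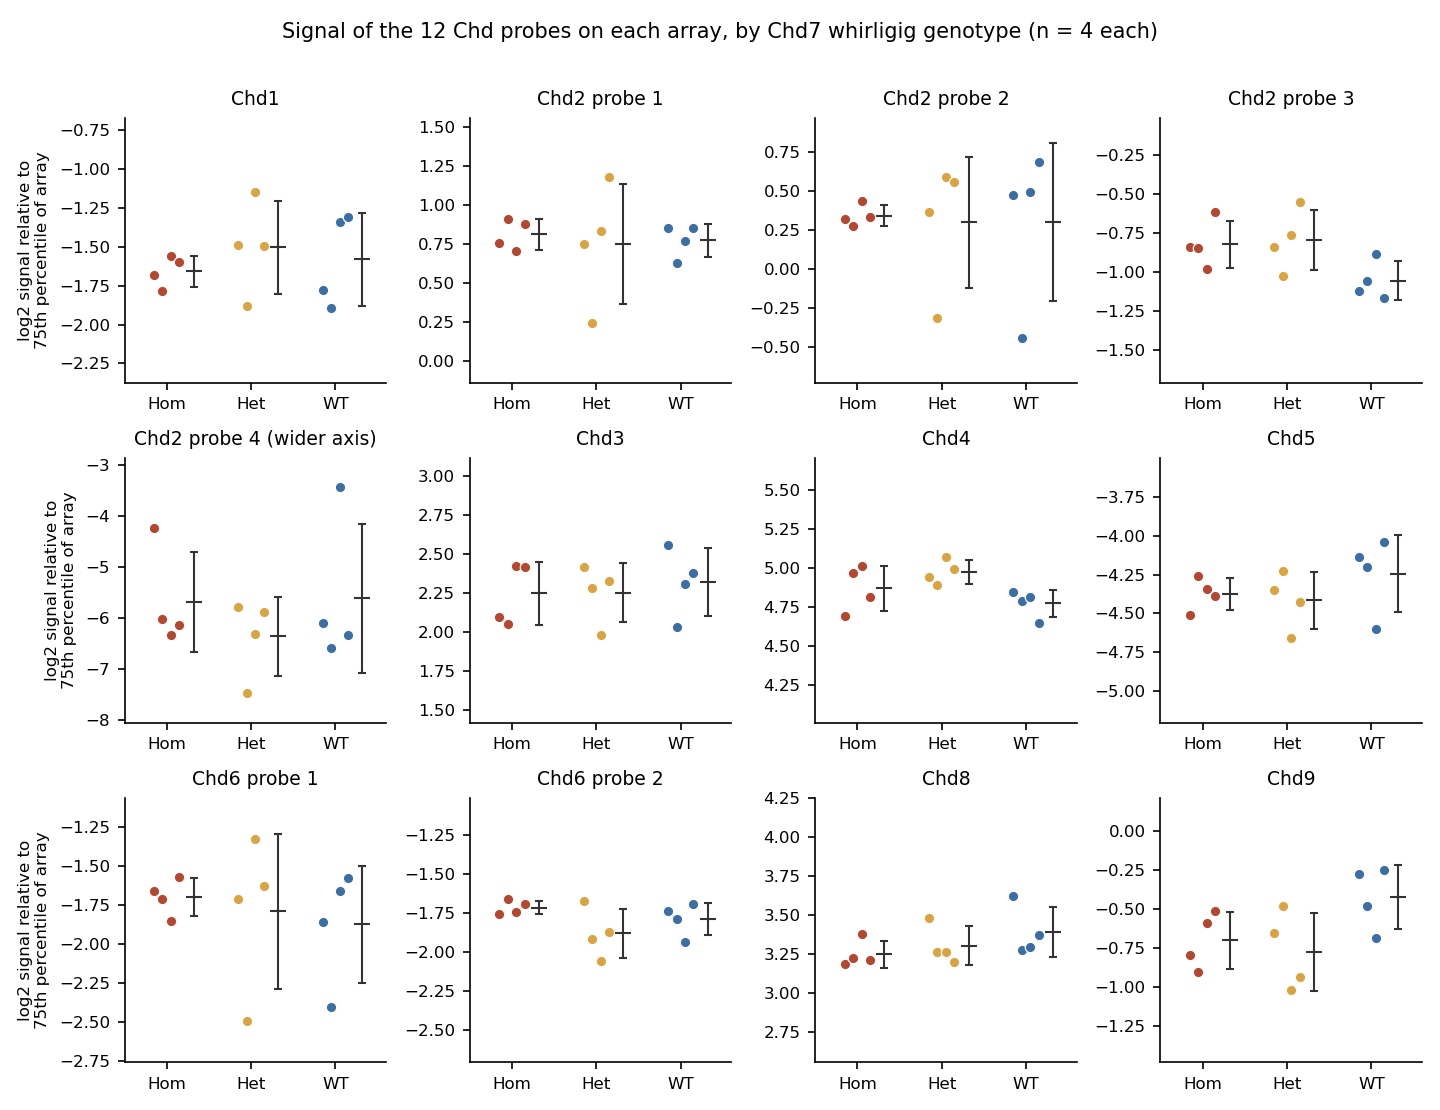
Scaled log2 signal of each Chd probe (y axis, log2 relative to the 75th percentile of the array) on each array, grouped as homozygous (Hom), heterozygous (Het) and wild type (WT) on the x axis. Points are arrays and the bars beside them are mean ± SD (n = 4); the y axes span the same range except for Chd2 probe 4, and the groups overlap in all panels except heterozygous against wild type for Chd4.

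Chd1, which binds the histone mark of active promoters and helps keep the chromatin of pluripotent cells open, showed similar levels in the 3 genotypes. Its scaled signals were -1.68, -1.79, -1.56 and -1.60 on the homozygous arrays, -1.49, -1.88, -1.15 and -1.49 on the heterozygous arrays and -1.78, -1.89, -1.34 and -1.31 on the wild-type arrays. The genotypes overlapped fully, and the homozygous arrays (-1.66 ± 0.10, SD, n = 4) lay closest together. The log2 fold change of homozygous over wild type was -0.07 ± 0.17 (SE; 95% interval -0.44 to 0.29; limma adjusted p = 0.854), and that of heterozygous over wild type was 0.08 ± 0.17 (adjusted p = 0.83).

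Chd2, a remodeller in which variants cause an early-onset epilepsy in people, was read by 4 probes that did not move alike, numbered here by their mean signal. Probe 1 averaged 0.82 ± 0.10 in homozygous, 0.75 ± 0.39 in heterozygous and 0.78 ± 0.11 in wild-type embryos (SD, n = 4). On probe 2 the means were 0.34 ± 0.07, 0.30 ± 0.42 and 0.30 ± 0.51 in homozygous, heterozygous and wild-type embryos. The wide spread of probe 2 came from 1 heterozygous and 1 wild-type array, both named replicate 2, which read -0.32 and -0.45 while the remaining arrays of all genotypes lay between 0.28 and 0.69. The log2 fold changes of both probes lay between -0.02 and 0.06 in the 3 comparisons.

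Chd2 probe 3 gave the highest positive difference between homozygous and wild-type embryos among the Chd probes. It read -0.84, -0.85, -0.98 and -0.62 in homozygous, -0.84, -1.03, -0.76 and -0.56 in heterozygous and -1.12, -1.06, -0.88 and -1.17 in wild-type embryos. Most mutant arrays lay above most wild-type arrays, but both mutant genotypes overlapped with wild type. The log2 fold change was 0.24 ± 0.12 for homozygous over wild type (SE; adjusted p = 0.348) and 0.26 ± 0.12 for heterozygous over wild type (unadjusted p = 0.0472, adjusted p = 0.331). With the position of the array on its slide as a block, these values became -0.03 ± 0.21 and -0.09 ± 0.26 (SE, limma adjusted p = 1.0 each). With slide as a block they were 0.24 and 0.30.

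Chd2 probe 4 was dim and scattered. Its processed signal was 87.4 units on homozygous replicate 1 and 122 units on wild-type replicate 3, and 7.05 to 22.9 units on the other 10 arrays. It was well above background on 4 of 4 homozygous, 3 of 4 heterozygous and 4 of 4 wild-type arrays. On the scaled scale it averaged -5.68 ± 0.98 in homozygous, -6.36 ± 0.77 in heterozygous and -5.61 ± 1.47 in wild-type embryos (SD, n = 4). The log2 fold change of homozygous over wild type was -0.06 ± 0.69 (SE; adjusted p = 0.973); it was 0.66 without wild-type replicate 3 (adjusted p = 0.516) and -0.55 without homozygous replicate 1 (adjusted p = 0.711). For heterozygous over wild type it was -0.74 ± 0.69 (limma adjusted p = 0.589), and -0.02 without wild-type replicate 3. With array position as a block, homozygous over wild type gave -1.85 ± 0.76 and heterozygous over wild type -2.13 ± 0.93 (SE). Wild-type replicate 3 was the only wild-type array that shared a position with mutant arrays in that fit. On the other 3 Chd2 probes homozygous replicate 1 and wild-type replicate 3 lay within the range of the remaining arrays.

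In the second subfamily, Chd3 and Chd4 are the broadly expressed motors of NuRD, a complex that couples remodelling to histone deacetylation. Chd3 read 2.10, 2.05, 2.43 and 2.42 in homozygous, 2.42, 2.28, 1.98 and 2.33 in heterozygous and 2.56, 2.03, 2.31 and 2.38 in wild-type embryos. Its groups overlapped fully, and the log2 fold change was -0.07 ± 0.14 both for homozygous over wild type (SE; adjusted p = 0.833) and for heterozygous over wild type (adjusted p = 0.823).

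On the scaled signal, Chd4 was the only Chd probe whose arrays separated in any comparison. It read 4.69, 4.96, 5.01 and 4.81 in homozygous, 4.94, 4.89, 5.07 and 4.99 in heterozygous and 4.84, 4.79, 4.81 and 4.64 in wild-type embryos. All 4 heterozygous arrays were above all 4 wild-type arrays on this scale, while the homozygous arrays overlapped with both. Before scaling, heterozygous and wild-type arrays overlapped, at 33226 to 39645 and 35497 to 39755 units of processed signal. The 75th percentiles subtracted were 1046 to 1258 units on heterozygous and 1286 to 1529 units on wild-type arrays. The part of this scaling in the Chd4 difference was not tested. The log2 fold change of heterozygous over wild type was 0.20 ± 0.09 (SE; 95% interval -0.00 to 0.41; unadjusted p = 0.0541, adjusted p = 0.341), a 1.15-fold difference that did not pass the test. It was 0.21 without heterozygous replicate 1 (limma adjusted p = 0.411). With the position of the array as a block it was 0.12 ± 0.235 (SE, limma adjusted p = 1.0). Within the 3 slides the heterozygous arrays differed from the wild-type arrays by 0.07, 0.27 and 0.34. Homozygous over wild type gave 0.10 ± 0.09 (adjusted p = 0.624).

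Separation of this kind was seen for 1 of 12 Chd probes between heterozygous and wild-type embryos, where 6.39% of all tested probes had groups that did not overlap. It was seen for 0 of 12 Chd probes between homozygous and wild-type embryos, against 13.5% of all probes, and for 0 of 12 between homozygous and heterozygous embryos, against 2.79% of all probes. At an unadjusted p under 0.05 the Chd count was 0 of 12 for homozygous against wild type, where 16.4% of all probes passed. It was 2 of 12 for heterozygous against wild type, namely Chd2 probe 3 and Chd9, where 14.9% of all probes passed, and 0 of 12 for homozygous against heterozygous, where 5.55% did. Without heterozygous replicate 1 the count was 1 of 12 in each of these 2 comparisons. The share of all probes was not taken for that fit.

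Chd5, the NuRD motor expressed mainly in neurons and testis, read -4.51, -4.26, -4.34 and -4.39 in homozygous, -4.35, -4.23, -4.66 and -4.43 in heterozygous and -4.14, -4.20, -4.60 and -4.04 in wild-type embryos. The probe was dim, at 46.8 to 93.0 units of processed signal, though well above background on all arrays. Wild-type replicate 3 was lower than any homozygous array, and the other 3 wild-type arrays were above every mutant array. The log2 fold change was -0.13 ± 0.13 for homozygous over wild type (SE; adjusted p = 0.647) and -0.17 ± 0.13 for heterozygous over wild type (adjusted p = 0.518). With normexp background correction they were -0.29 and -0.28, each with an SE of 0.23. Both became positive with array position as a block, at 0.17 ± 0.20 and 0.08 ± 0.25 (SE). The only wild-type array that shared a position with mutant arrays there was the low wild-type replicate 3. Without wild-type replicate 3 the fold changes were -0.25 and -0.29 (limma adjusted p = 0.290 and 0.287). The early neuron markers also differed between these arrays. Of 10 markers, 8 were well above background on all arrays, while Neurod1 was so on 10 arrays and Neurod4 on 6. The mean scaled signal of those 8 markers was -2.04 to -1.52 in homozygous, -2.0 to -1.18 in heterozygous and -1.38 to -0.69 in wild-type embryos. Of the 8, 2 fell past the threshold between homozygous and wild-type embryos, where 1.17% of all probes were called in either direction. They were Pou4f1, a sensory neuron factor, by 0.85 ± 0.15 on the log2 scale (adjusted p = 0.0189), and Isl1, a factor of motor and sensory neurons, by 0.79 ± 0.16 (adjusted p = 0.0360). In whole embryos fewer neurons and less RNA per neuron cannot be told apart, and the part of neuron number in the Chd5 signal was not tested.

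The third subfamily holds the closest relatives of Chd7. Chd6, a remodeller linked in mice to motor coordination, was read by 2 probes. Probe 1 read -1.66, -1.71, -1.86 and -1.57 in homozygous, -1.71, -2.49, -1.33 and -1.63 in heterozygous and -1.86, -2.41, -1.66 and -1.57 in wild-type embryos. The arrays named heterozygous replicate 2 and wild-type replicate 2 were again the lowest, as on Chd2 probe 2. Its log2 fold change of homozygous over wild type was 0.18 ± 0.24 (SE, limma adjusted p = 0.737). It was -0.0005 without wild-type replicate 2 and -0.10 ± 0.46 with array position as a block. On probe 2 the means were -1.72 ± 0.04 in homozygous, -1.88 ± 0.16 in heterozygous and -1.79 ± 0.10 in wild-type embryos (SD, n = 4). Its largest difference was 0.17 ± 0.10 for homozygous over heterozygous (adjusted p = 0.95).

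Chd8, a repressor of beta-catenin target genes that is mutated in some forms of autism, read 3.18, 3.23, 3.38 and 3.21 in homozygous, 3.48, 3.27, 3.26 and 3.20 in heterozygous and 3.62, 3.27, 3.29 and 3.37 in wild-type embryos. The means ordered as 3.25 ± 0.09, 3.30 ± 0.12 and 3.39 ± 0.16 in homozygous, heterozygous and wild-type embryos (SD, n = 4), and neighbours in this order differed by less than their spread. Homozygous over wild type gave a log2 fold change of -0.14 ± 0.10 (SE, 95% interval -0.37 to 0.08, limma adjusted p = 0.515). In this fit with genotype only, the interval lay within a change of 1.5-fold in either direction.

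Chd9, known also from osteoprogenitor cells and nuclear receptor signalling, had the largest differences from wild type among the Chd probes other than the scattered Chd2 probe 4. It read -0.79, -0.91, -0.59 and -0.51 in homozygous, -0.65, -0.48, -1.02 and -0.94 in heterozygous and -0.27, -0.48, -0.69 and -0.25 in wild-type embryos. Most wild-type arrays were above most mutant arrays, and wild-type replicate 3 lay among the mutants. The means were -0.70 ± 0.18 in homozygous, -0.77 ± 0.25 in heterozygous and -0.42 ± 0.21 in wild-type embryos (SD, n = 4).

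The log2 fold change of Chd9 was -0.28 ± 0.15 for homozygous over wild type (SE; unadjusted p = 0.0851, adjusted p = 0.370), a level 0.824 times that of wild type. For heterozygous over wild type it was -0.35 ± 0.15 (unadjusted p = 0.0360, adjusted p = 0.311), a level 0.784 times that of wild type. Neither passed the test, and homozygous and heterozygous embryos differed by 0.07 ± 0.15. Within the 3 slides the difference of homozygous from wild type was -0.52, -0.32 and -0.30, and that of heterozygous from wild type was -0.29, -0.44 and -0.69, lower in the mutants on each slide. With array position as a block the values became -0.01 ± 0.26 and -0.07 ± 0.32 (SE, limma adjusted p = 1.0 each), with wider SEs than in the fit with genotype only. With the title number as a block they were -0.29 ± 0.21 and -0.36 ± 0.17. Without wild-type replicate 3 they were -0.37 and -0.44 (limma adjusted p = 0.245 and 0.262). Without heterozygous replicate 1 the heterozygous value was -0.39 (limma adjusted p = 0.367). Of the 5 visceral endoderm or liver bud markers seen on all arrays, 5 had higher means than in wild type in both mutant genotypes, with a median log2 fold change of 0.39 for homozygous and of 1.04 for heterozygous over wild type. By limma 0 of the 5 passed the threshold in either comparison, and 0 had an unadjusted p under 0.05. Their part in the Chd9 difference, and that of the early neuron markers, was not tested. The position held by 3 wild-type arrays held no mutant array. The remaining wild-type array, replicate 3, shared its position with homozygous arrays only. With position as a block, heterozygous and wild-type embryos were therefore compared only by way of homozygous arrays.

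**Figure D2:**
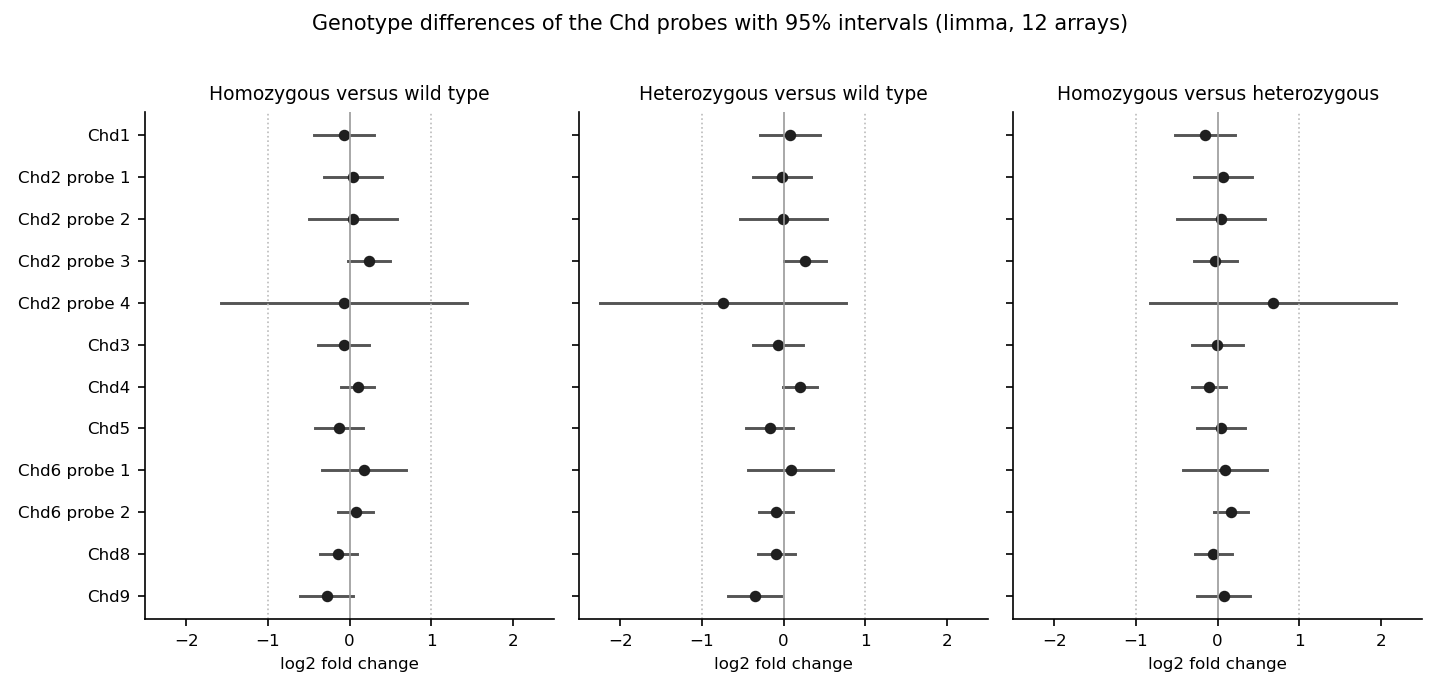
Log2 fold change (x axis) of each Chd probe (rows) in the 3 genotype comparisons, with 95% intervals from limma over 12 arrays; the dotted lines mark a 2-fold difference. All intervals lie within these lines except those of Chd2 probe 4, and adjusted p was at least 0.311 for each difference.

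As a family the differences lay on both sides of 0. The 12 Chd probes had a median log2 fold change of -0.01 for homozygous over wild type, with 6 higher and 6 lower values, where the median of all tested probes was 0.03. For heterozygous over wild type the median was -0.05, with 4 higher and 8 lower values, where that of all probes was 0.04. For homozygous over heterozygous it was 0.04, with 7 higher and 5 lower values, where that of all probes was -0.02. Each pair of these comparisons shares the arrays of 1 genotype, so their values are not independent. With array position as a block, 5 of the 12 values changed sign for homozygous over wild type, 5 for heterozygous over wild type and 1 for homozygous over heterozygous.

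The members did not vary as a block between embryos. Over the 12 arrays, Pearson's r between the brightest probe of each gene ranged from -0.61 to 0.79 over 28 pairs, with a median of 0.02. The most alike were Chd2 probe 2 and Chd6 probe 1 (r = 0.90), and then Chd1 with that Chd6 probe (0.79), Chd1 with Chd2 probe 2 (0.77) and Chd5 with Chd9 (0.77). The arrays named heterozygous replicate 2 and wild-type replicate 2 were the lowest of the 12 for Chd2 probe 2 and Chd6 probe 1, and the lowest of their genotypes for Chd1. The most opposed were Chd2 probe 3 with Chd9 (r = -0.73), the same probe with Chd5 (-0.67), and Chd4 with Chd9 (-0.61). These coefficients describe 12 arrays that share genotype, slide and scaling.

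Probes of the same gene were not more alike than some of different genes. The 7 pairs within Chd2 and Chd6 had r between -0.01 and 0.71, with a median of 0.32. The pair of Chd6 probes gave the lowest of these and Chd2 probes 1 and 2 the highest.

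**Figure D3:**
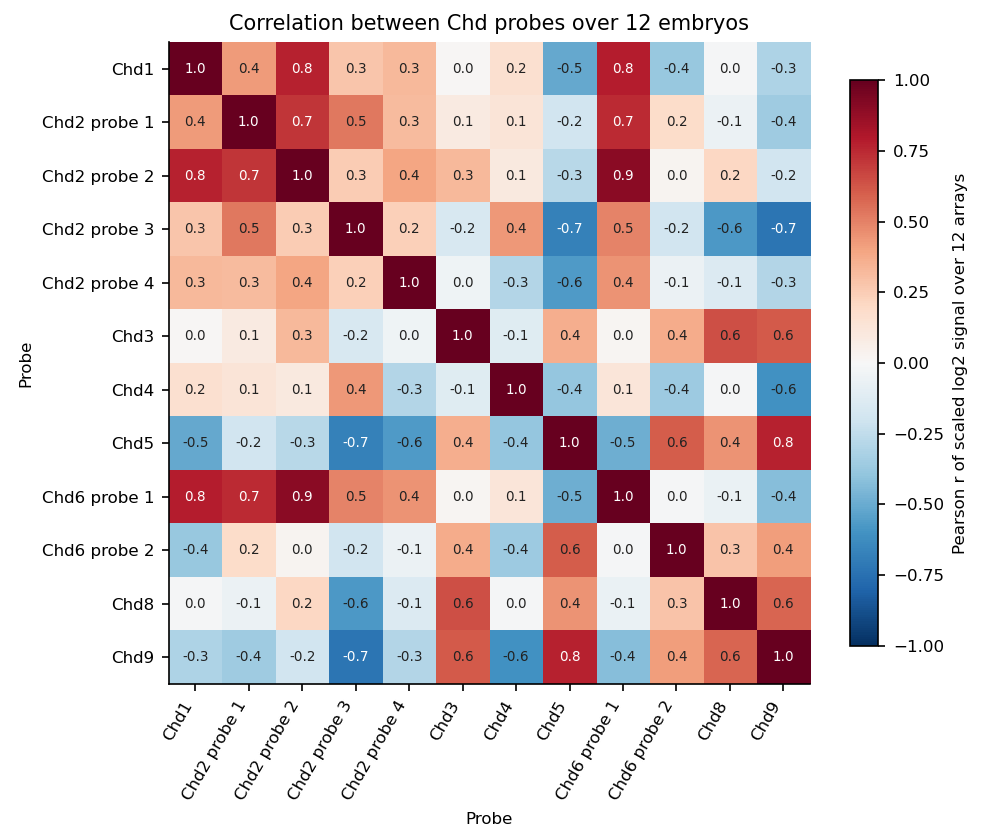
Pearson's r (colour scale from -1 to 1, with the value in each cell) between the scaled log2 signals of the Chd probes over 12 arrays, probes on both axes. Chd1, Chd2 probe 2 and Chd6 probe 1 are alike, with r from 0.77 to 0.90, and Chd2 probe 3 runs against Chd9 with r = -0.73.

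Genes whose pattern over the 12 arrays was most like that of the members were looked for among 15022 genes. Closest to Chd9 were Zbtb14, a zinc finger transcription factor (r = 0.96), Pnisr, a nuclear protein tied to splicing (0.95), and Mettl18, a histidine methyltransferase (0.95). Closest to Chd4 were the mast cell protease Prss34 (0.94), Ephb6, an ephrin receptor without kinase activity (0.94), and the complement component C3 (0.94). Closest to Chd8 were Zic4, a zinc finger factor of the dorsal neural tube (0.91), the adaptor Sh2b2 (0.90) and the connexin Gjd3 (0.89). None of these 9 passed the threshold in any comparison. Of Chd9's neighbours, Pnisr had a log2 fold change of -0.38 ± 0.19 for homozygous over wild type (SE; adjusted p = 0.346). These genes were picked as the highest r of all those compared, over arrays that share genotype, slide and scaling, and the values are a description. Scaled Chd4 was lowest, at 4.64 and 4.69, on the arrays with the highest 75th percentiles, 1529 and 1628 units. The part of the scaling in these likenesses was not tested.

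The same test was read for other chromatin remodellers and for the enzymes that methylate H3K4, a histone mark bound by the chromodomains of some CHD proteins. Of 81 listed genes 75 were tested, each on its brightest probe, and 0 were higher or lower past the threshold in any of the 3 comparisons. Between homozygous and wild-type embryos 36 had a higher and 39 a lower mean, and 11 of 75 had an unadjusted p under 0.05, of which 6 were higher, where 16.4% of all probes did. Between heterozygous and wild-type embryos 9 of 75 had an unadjusted p under 0.05, of which 5 were higher, where 14.9% of all probes did. Between homozygous and heterozygous embryos the count was 0, where 5.55% of all probes did.

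Among 12 NuRD subunits, the partners of Chd3, Chd4 and Chd5, 7 had a higher and 5 a lower mean in homozygous than in wild-type embryos, with a median log2 fold change of 0.05. The smallest p values belonged to Cdk2ap1, a small subunit (-0.32 ± 0.11, SE; adjusted p = 0.189), and Gatad2b, a zinc finger subunit (0.42 ± 0.18, adjusted p = 0.278). Among 25 tested of 27 subunits of the BAF and PBAF complexes, 13 were higher and 12 lower, with a median of 0.04. Smarce1, a DNA-binding subunit of both complexes, and Phf10, a PBAF subunit, had values of -0.30 ± 0.10 (adjusted p = 0.184) and -0.44 ± 0.17 (adjusted p = 0.246). None of these values passed the test.

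Among 11 genes of ISWI remodellers, which space nucleosomes evenly, 3 were higher and 8 lower, with a median log2 fold change of -0.06. Baz2a, a subunit of the complex that silences ribosomal DNA, had the smallest p of all the lists, at 0.35 ± 0.09 (SE; adjusted p = 0.0871), and the ATPase Smarca5 gave -0.22 ± 0.09 (adjusted p = 0.277). Among 14 tested of 16 genes of INO80, SRCAP and other SNF2 ATPases, 6 were higher and 8 lower, with a median of -0.03. Ercc6, which acts in transcription-coupled repair, gave 0.20 ± 0.10 (adjusted p = 0.350), and Rad54l2, a coregulator of the androgen receptor, gave -0.21 ± 0.14 (adjusted p = 0.468). The 13 tested of 15 genes of H3K4 methyltransferase complexes had 7 higher and 6 lower values and a median of 0.00, with Setd1a, a catalytic subunit, at 0.24 ± 0.10 (adjusted p = 0.265) and its partner Cxxc1 at 0.22 ± 0.09 (adjusted p = 0.281).

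**Figure D4:**
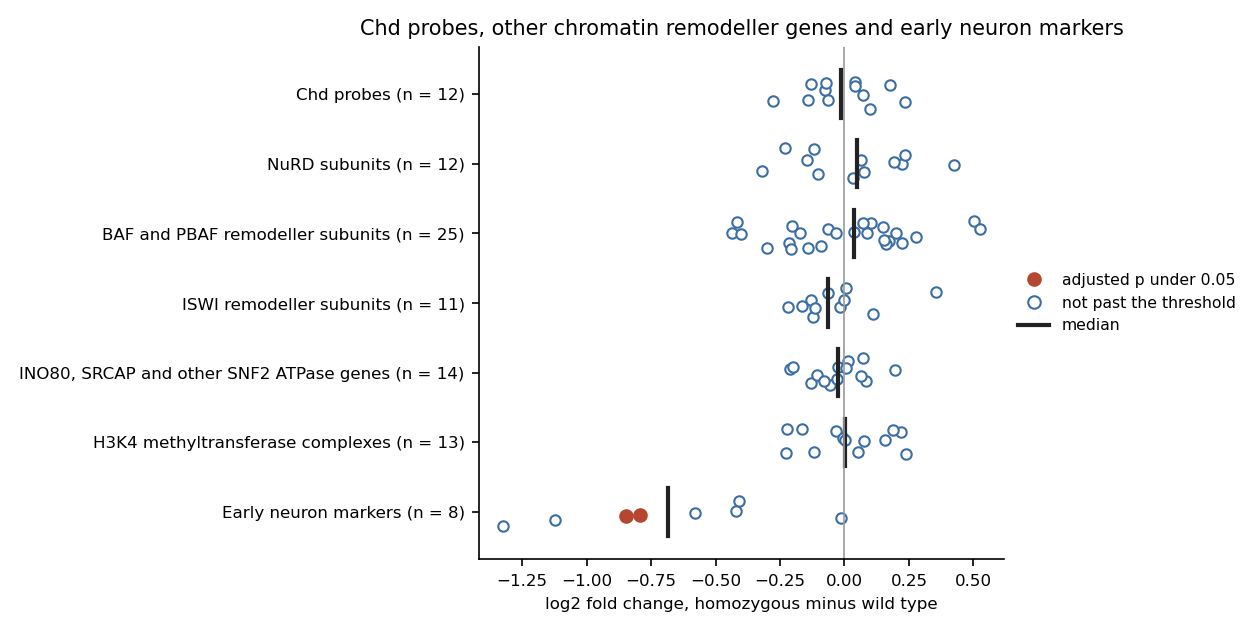
Log2 fold change of homozygous over wild type (x axis) for the 12 Chd probes, the genes of 5 remodeller and methyltransferase lists and the 8 early neuron markers seen on all arrays (rows); points are probes, filled where the adjusted p was under 0.05, and vertical bars are medians. The Chd and remodeller medians lie between -0.06 and 0.05, with no filled point, and the early neuron median is -0.69, with 2 filled points.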

How the data were processed

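The intensity values are the deposited processed signals of 12 one-colour (Cy3) Agilent whole-genome mouse arrays. The authors quantified the spots with Agilent Feature Extraction 10.7.3.1, as both the submitters' processing notes and the scanner output record. Per the file headers, this software subtracted background within each array but did not scale between arrays. The deposited value table held the same intensities, with a largest relative difference of 0. limma is named in the notes with no version.

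Each intensity was put on a log2 scale, and the 75th percentile of its array was subtracted, after leaving out 1377 control spots and 171 to 386 spots per array marked as non-uniform or outlying. No spot was saturated. Names came from matching unversioned transcript accessions to RefSeq (GRCm38.p6): 26049 of 39429 probes matched, for 19747 genes. The array was annotated on another build, so no coordinates are given. A probe was tested when every array of 1 or more genotypes showed it well above background and it was measured on at least 3 arrays of each, which left out 32 probes for missing arrays and kept 27540. Each probe was tested on its own, by lmFit and eBayes of limma 3.58.1 (R 4.3.3; genotype means, all 12 arrays) and Benjamini-Hochberg adjustment over all probes at a threshold of 0.05. P-values rest on the spread between samples within genotypes, pooled over the 3 genotypes and drawn by eBayes toward that of all tested probes. All Chd probes are named; of each remodeller list the 2 genes with the smallest p between homozygous and wild-type embryos are named, and of each of Chd9, Chd8 and Chd4 the 3 genes with the highest Pearson's r. The script was tested on simulated data. The members and lists were chosen with earlier results of these data known. The number of arrays limits the precision. Plots were made in matplotlib 3.10.9.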

Additional observations from a re-analysis of the deposited data

Results flagged for a closer look

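In groups of 4 arrays, a value was singled out when its gap to the nearest other array, divided by the range of the group, exceeded Dixon's 95% critical value. Of 36 groups of Chd probe values 2 met this, and of 18 groups of marker list means 1 did; chance gives about 1 in 20. Both Chd values came from Chd2 probe 4. Homozygous replicate 1 read -4.22, with the other homozygous arrays at -6.34 to -6.02. Wild-type replicate 3 read -3.43, with the other wild-type arrays at -6.58 to -6.10. The third was the mean of the heart muscle markers on heterozygous replicate 1, at -0.76, with the other heterozygous arrays at 3.34 to 3.80. Among these markers Nppa, an atrial peptide, read -5.19 on that array and 1.63 to 2.57 on the other 11, and Myh6, a cardiac myosin, read -0.95 and 4.38 to 5.45.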

How the results depend on the processing

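The comparisons were repeated under 24 alternatives, which changed the background correction, normalization, filter, probe choice, variance model, array weights, blocks or arrays included. The count of Chd probes past the threshold was 0 under each of them in each of the 3 comparisons. The median log2 fold change of the Chd probes ranged from -0.14 to 0.04 for homozygous over wild type, from -0.11 to 0.03 for heterozygous over wild type and from -0.08 to 0.08 for homozygous over heterozygous. Their smallest adjusted p was 0.183 (Chd9, slide as a block), 0.114 (Chd9, without heterozygous replicate 2) and 0.718 (Chd6 probe 2, array weights) in the same order. Single Chd values, none of them past the threshold, changed sign in 21, 26 and 25 of 283 repeats. Many of these repeats could not change a sign. Changes of filter, probe choice or variance model, or leaving out an array of the third genotype, keep the fold change of a probe the same. Over all probes, homozygous against wild type gave 323 calls as reported, 23 with the title number as a block, 26 with array position as a block, 92 with normexp background correction (offset 50), 210 with no filter, 500 with only the 2 genotypes, 601 with array weights and 117 to 495 without 1 array; the cause was not tested. Heterozygous against wild type gave 0 to 4 calls and homozygous against heterozygous 0 to 6. Normexp moved the median of all probes to -0.10 for homozygous over wild type and -0.06 for heterozygous over wild type. Replicate numbers are in accession order and pair no samples, so no block used them; slide as a block gave 336 calls between homozygous and wild-type embryos. What the title numbers mark is not given in the sources used here.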
